A study of Mus musculus with 7 samples.

Results

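Homologous recombination, Fanconi anemia pathway and checkpoint genes were followed in tumor libraries with and without Nuclear Myosin 1 (NM1). The set holds 48 genes, chosen by name from the genes with a symbol among the 46603 genes counted, and sorted here into 10 groups by role. They lie on 18 chromosomes, with 8 of them on chromosome 11. Of these, 25 were drawn in a heat map of DNA damage genes by the study, which selected them on these same libraries by the size of their change. The other 23 were not drawn there, and further subunits of the same complexes lie outside the set. KO tumors grew from mouse embryonic fibroblasts (MEFs) in which NM1, a nuclear form of a class I myosin encoded by Myo1c, had been deleted with CRISPR/Cas9. KO+NM1 tumors grew from the same KO cells after a lentivirus had returned NM1 with HA and V5 tags, followed by Neomycin selection and testing of single clones. Both kinds of cells were injected into female Balb/c nude mice, which lack T cells but keep other immune cells, at 16 weeks of age, and mice were followed for up to 30 days. Wild-type MEFs were injected too, and no wild-type tumor library is part of the comparison. The labels describe 1 tumor per condition, cut into 4 pieces that were homogenized separately, of which 3 KO pieces and 4 KO+NM1 pieces were sequenced. The p-values therefore cover the spread between pieces and may hold no difference between mice or clones.

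Homologous recombination repairs a broken chromosome by copying the intact sister chromatid. The ends are sensed and cut back to single strands, BRCA2 and its mediators prepare them for strand exchange, the strand invades the sister, and helicases and nucleases take the joined molecules apart. The Fanconi anemia pathway handles strands that are covalently linked to each other: a core complex attaches ubiquitin to FANCD2 and FANCI, which then call in nucleases and recombination factors. ATM and ATR are the kinases that report breaks and stalled replication forks, and CHK2 and CHK1 pass their signals on to the cell cycle. Many of these genes are known to be transcribed mainly in S and G2 phase, when a sister is present, so their messenger RNA is low in tissue that does not divide.

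Total counts per library ran from 24088309 to 28326568, and 16887 genes passed the filter on low counts, all 48 genes of the set among them. For 11 of the 48, over 10% of exon bases are shared with another counted gene, and the strand option of the counting was not stated, so reads of these could not be assigned with certainty. Levels are given in CPM, counts relative to the TMM-scaled library size. At these depths 3 counts, the most that a count of 0 allows, correspond to 0.0991 to 0.148 CPM for counting error only. Gene-level counts of Myo1c, which also hold its cytoplasmic isoforms, were 312, 289 and 306 CPM in KO pieces 01 to 03 and 438, 408, 406 and 382 CPM in KO+NM1 pieces 01 to 04 (log2 fold change -0.43, SE 0.13, adjusted p 0.0311). KO+NM1 piece 01 stood apart: over all genes it correlated at 0.856 to 0.861 with the other KO+NM1 pieces, which correlated at 0.977 to 0.986 with each other, and KO pieces correlated at 0.966 to 0.977. The tumors also differed in the cells that marker lists point to. All 10 white adipocyte markers and all 10 endothelial markers were lower in KO, with summed levels of 122 to 309 CPM against 4923 to 37050 CPM and 249 to 285 CPM against 1318 to 1925 CPM. All 9 skeletal muscle markers tested and 9 of 10 macrophage markers were higher in KO, with sums of 2452 to 20700 CPM against 50.98 to 188 CPM and 3818 to 4376 CPM against 657 to 2607 CPM. In the KO+NM1 pieces 3 of the 10 muscle markers, Ckm, Myh4 and Myog, were at 3 counts or fewer. Of the 9 mammary epithelium markers tested 4 were lower in KO, and their sums overlapped (23.9 to 611 CPM against 405 to 2006 CPM). Of 10 fibroblast markers 1 was higher and 4 were lower (9875 to 16020 CPM against 4076 to 15440 CPM). B and plasma cell markers were at 44.96 to 90.99 CPM in KO, at 5749 CPM in KO+NM1 piece 01 and at 9.99 to 26.9 CPM in KO+NM1 pieces 02 to 04, and 0 of the 10 passed edgeR's test, as 0 had an unadjusted p under 0.05. In tissue, fewer cells of a type and less RNA per cell cannot be told apart, and the part of these cell types in the results was not tested.

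Of the 48 genes, 31 were higher in KO at an adjusted p under 0.05 and at least 2-fold, where 17.1% of all genes tested were, and 3 were lower, where 20.3% of all genes were. The 3 were Poln, Rad9b and Eya2. By the adjusted p alone 1 more gene was higher, Atr, and 2 more were lower, Rad51d and Xrcc3, and the other 11 did not pass (25.7% of all genes were higher and 24.5% lower by this rule). The median log2 fold change over the 48 was 2.04, against -0.0017 over all genes tested. Libraries of the groups did not overlap for 37 genes: 32 had every KO piece above every KO+NM1 piece, as had 30.5% of all genes, and 5 had every KO piece below, as had 26.4%. Without KO+NM1 piece 01, 32 genes were higher and 4 lower, Rad51b and Rad51d joining the counts. Of the 25 genes the study had drawn, 21 were higher and 3 lower (median 4.26), but they were selected on these libraries and carry no independent evidence of direction. Of the 23 others 10 were higher at 2-fold, none was lower at 2-fold (2 were by the adjusted p alone), and 10 did not pass by any rule (median 0.85). Among these 23 were Brca1 (5.38) and Rad54b (4.80), so the size of the change was not all that decided what was drawn. As it was part of the selection, the smaller median of the 23 carries no independent evidence either.

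**Figure D1:**
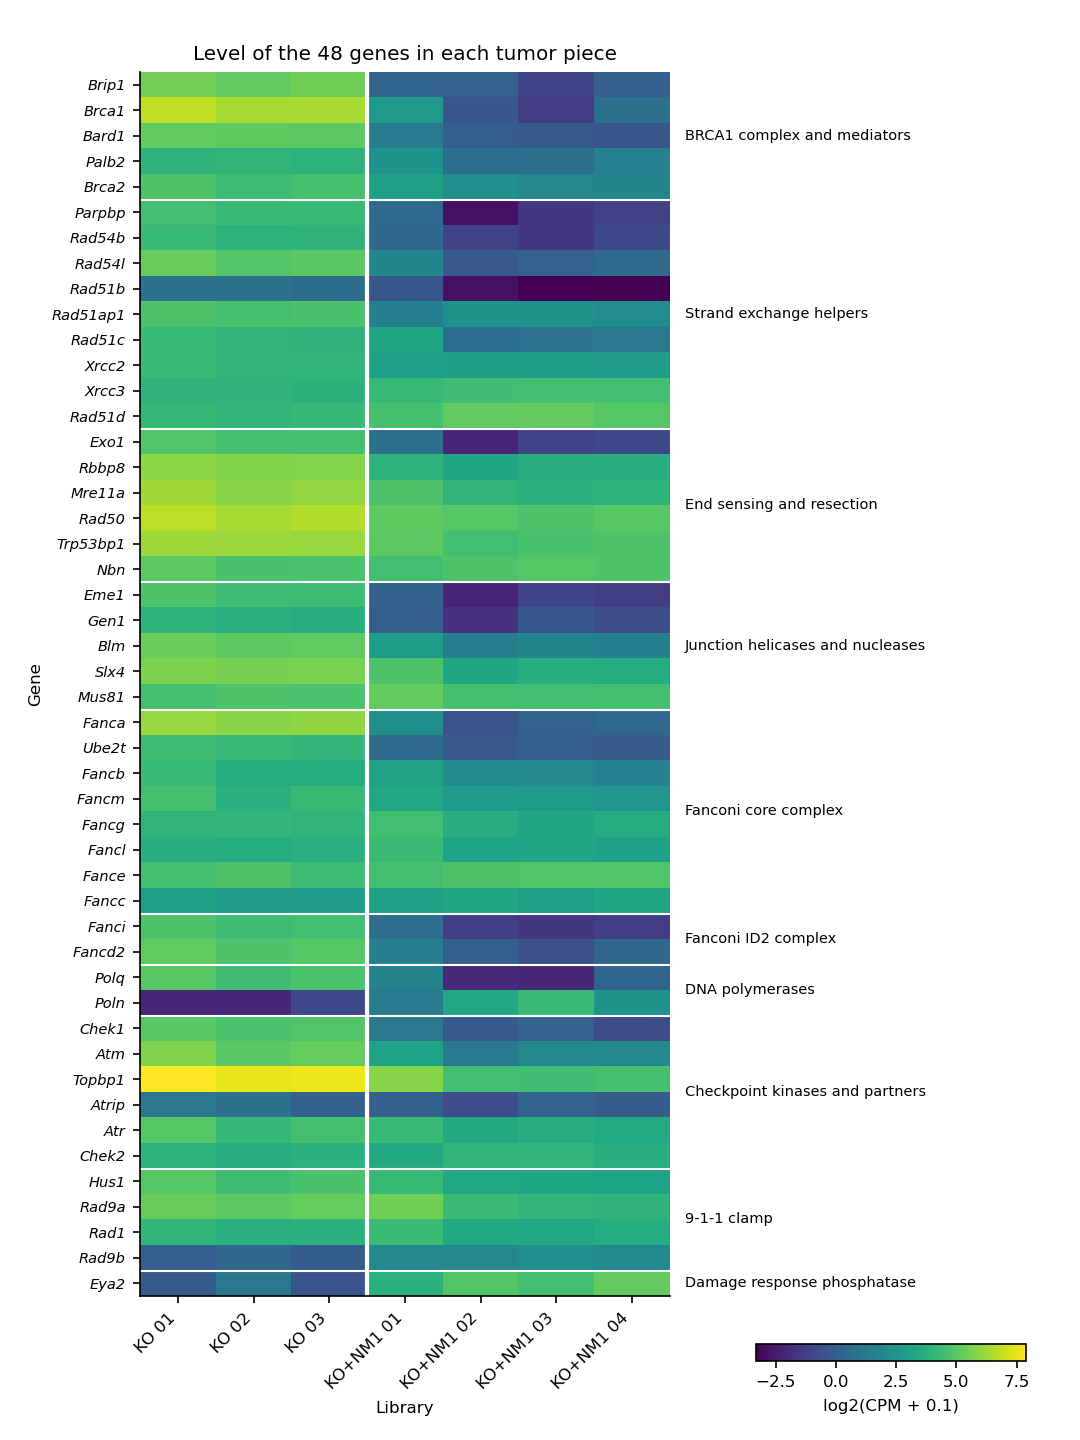
Level of the 48 genes in each library, as log2(CPM + 0.1), with genes in rows by role and sorted by log2 fold change within a role, and the 3 KO and 4 KO+NM1 tumor pieces in columns. The upper rows of most groups are bright in KO and dark in KO+NM1, most of all in KO+NM1 pieces 02 to 04, while Poln, Rad9b and Eya2 show the reverse.

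The differences were spread unevenly. A log2 fold change of 4 or higher in KO was seen for 15 of the 48 genes (31.2%) and for 3.38% of all genes tested. All 15 passed the test, as did 3.35% of all genes at that size. They were Brca1, Bard1, Brip1, Rad54l, Rad54b, Parpbp, Exo1, Eme1, Gen1, Fanca, Ube2t, Fancd2, Fanci, Polq and Chek1. A log2 fold change of -4 or lower was seen for 2 of the 48 (4.17%), Poln and Eya2, and for 4.57% of all genes. Close to 0, 8 of the 48 (16.7%) lay between -0.5 and 0.5, as did 31.4% of all genes. Large and small differences stood side by side within the same complexes.

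**Figure D2:**
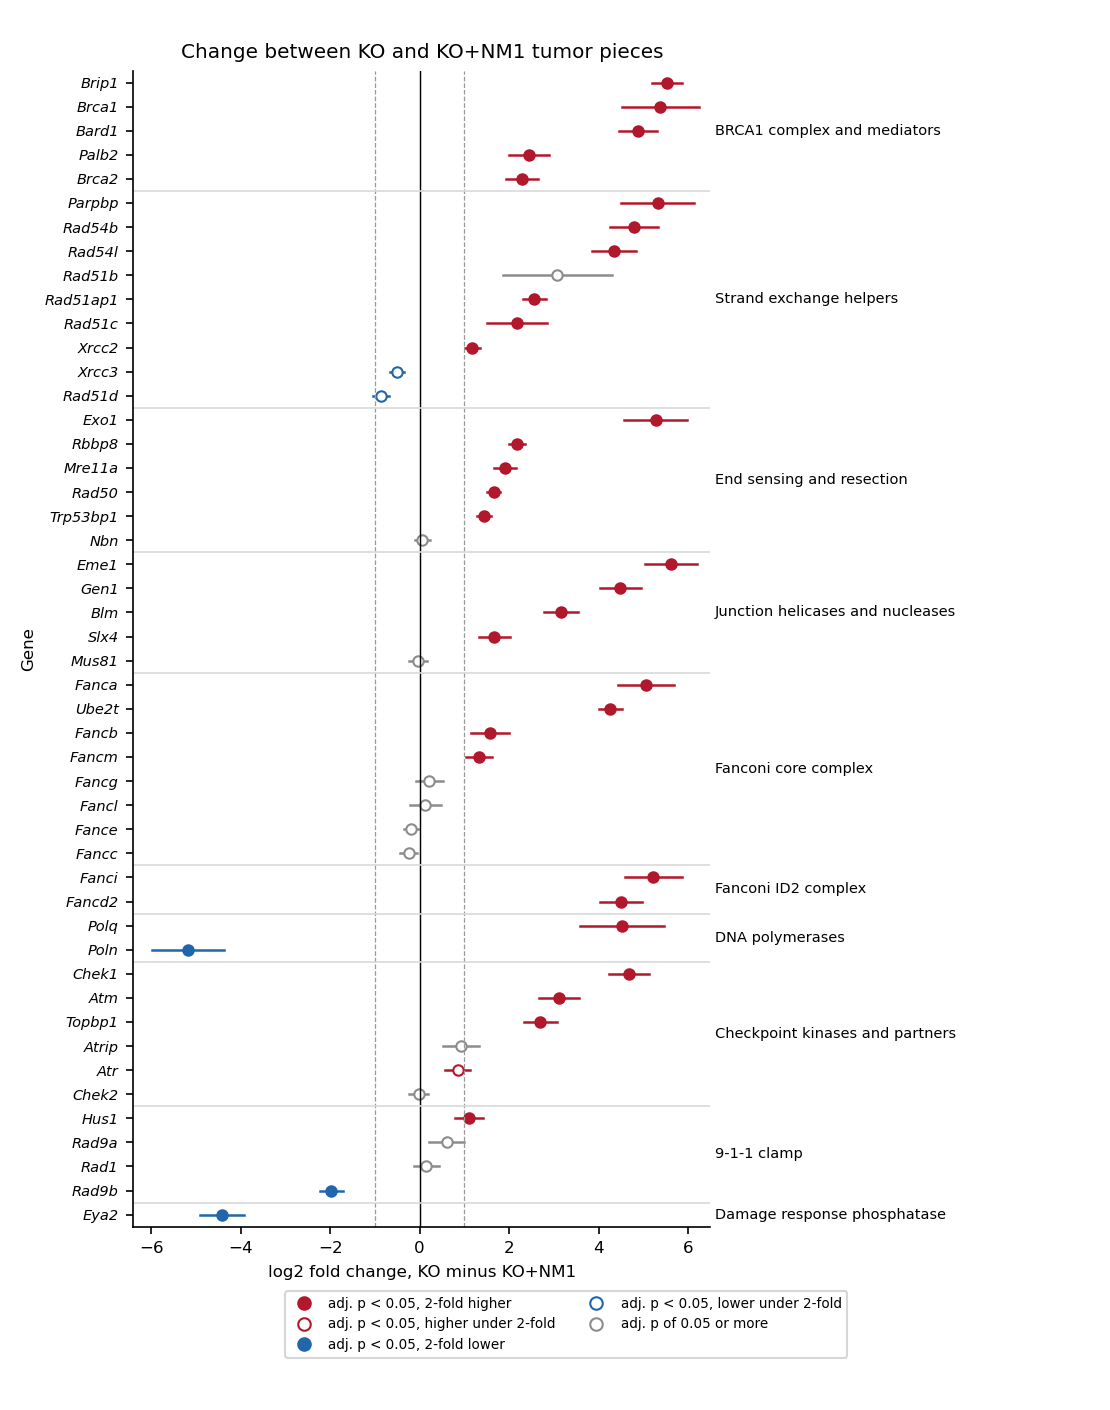
The log2 fold change (KO minus KO+NM1) of each gene by role, with bars of 1 SE either side of the fitted value and dashed lines at a 2-fold change. Each of the groups with more than 2 genes, other than the BRCA1 group, spans from genes above the 2-fold line to genes near or below 0.

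Promoter windows from RefSeq (GRCm38.p6), 250 bases before to 50 bases after the transcription start, could be matched for 38 of the 48 genes and were searched on both strands for 3 short motifs of cell cycle promoters. An E2F-type element (TTNNCGC, each N being C or G) was found in 18 of the 38 (47.4%), against 18.1% of the 11942 tested genes with a window and 10.9% of all 27025 genes of the table. It was present in 15 of the 25 windows of genes higher at 2-fold and in 3 of the 13 windows of the other genes. The cell cycle homology region (CHR, TTNGAA, with N being T or C) was found in 8 windows (21.1%), against 16.7% and 21.7%, and 5 of these 8 belonged to the 12 genes with a window that were higher in KO by 4 or more on the log2 scale. The CCAAT box was found in 22 (57.9%), against 41.9% and 41.1%, and in 1 gene an E2F-type match overlapped a CCAAT match. These matches describe letters in a fixed window and not binding.

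The BRCA1 complex and its mediators were higher in KO throughout: all 5 genes passed at 2-fold. Brip1, the helicase that binds BRCA1 directly, was at 46.3, 36.8 and 43.6 CPM in KO pieces 01 to 03 and at 1.17, 1.06, 0.395 and 0.987 CPM in KO+NM1 pieces 01 to 04. Its log2 fold change was 5.53 (SE 0.34, adjusted p 0.000229), and the groups were far apart, with KO+NM1 piece 03 the lowest. Brca1, the ubiquitin ligase at the center of the complex, was at 112, 86.4 and 87.5 CPM in KO and at 6.31, 0.732, 0.296 and 1.69 CPM in KO+NM1, a difference of 5.38 (SE 0.86, adjusted p 0.00367), with KO+NM1 piece 01 well above the other 3. Bard1, its ligase partner, differed by 4.88 (SE 0.42, adjusted p 0.000517). Smaller differences were found for the loaders. Brca2, a mediator that acts on single-stranded DNA, was at 28, 20.9 and 24.5 CPM in KO and at 8.32, 4.72, 3.51 and 3.37 CPM in KO+NM1 (log2 fold change 2.29, SE 0.35, adjusted p 0.00225). Palb2, the bridge between BRCA1 and BRCA2, had a log2 fold change of 2.44 (SE 0.45, adjusted p 0.00435). Although Brca1 and Bard1 encode a heterodimer, the log2 ratio of their counts was stable over KO pieces (1.63, 1.30 and 1.37) and scattered over KO+NM1 pieces (1.45, -0.35, -1.34 and 1.25), where Brca1 had as few as 6 counts, and its difference was within that spread (exact permutation p 0.257, adjusted over 12 pairs 0.309). For Brca2 against Palb2 the difference of the ratio was -0.23 (exact permutation p 0.6, adjusted 0.655).

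The genes Rad51b, Rad51c, Rad51d, Xrcc2 and Xrcc3 encode related proteins that assist strand exchange in partly shared complexes. These 5 genes did not move as 1 unit. Rad51c and Xrcc2 were higher in KO (2.17 and 1.18), Rad51d and Xrcc3 were lower by less than 2-fold, and Rad51b did not pass. Rad51d was at 18.2, 16.6 and 18.4 CPM in KO and at 24.7, 37.2, 37.1 and 30.4 CPM in KO+NM1, where every piece was above every KO piece. Its log2 fold change was -0.87 (SE 0.19, adjusted p 0.0083), and it reached 2-fold without KO+NM1 piece 01 (-1.10). Xrcc3 was likewise below in every KO piece, at 15.8, 15.8 and 14.7 CPM against 19.6, 21.9, 23.02 and 23.1 CPM (log2 fold change -0.51, SE 0.15, adjusted p 0.0263), a call that was lost without KO piece 03 (adjusted p 0.0609) or without KO+NM1 piece 02, 03 or 04 (0.0604, 0.0562 and 0.0619), and with scaling to library size alone (-0.32, adjusted p 0.185). Without KO+NM1 piece 01 the log2 fold change of Xrcc3 was -0.68 (adjusted p 0.00138). RAD51C pairs with XRCC3 in 1 complex and RAD51D with XRCC2 in the other, so both complexes held a member that was higher and a member that was lower. Xrcc2 was at 17.3 ± 1.55 CPM (SD, n = 3) in KO and at 7.64 ± 0.449 CPM (SD, n = 4) in KO+NM1 (adjusted p 0.00174). Rad51c depended on the libraries kept. Its adjusted p of 0.0314 went to between 0.0692 and 0.0969 without any 1 of KO pieces 01 to 03 or KO+NM1 pieces 02 to 04. KO+NM1 piece 01 held 9.48 CPM against 1.59 to 2.10 CPM in the other 3. Without that piece the log2 fold change of Rad51c was 3.08 (adjusted p 1.82e-05). Rad51b was counted with 53, 50 and 44 reads in KO and with 19, 1, 0 and 0 reads in KO+NM1 (log2 fold change 3.07, SE 1.22, adjusted p 0.0693). All KO pieces were above all KO+NM1 pieces, and without KO+NM1 piece 01 the log2 fold change was 6.33 and passed (adjusted p 0.000135).

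The helpers of strand exchange were higher in KO by larger amounts. Parpbp, which holds recombination back, was at 22.8, 19.1 and 18.9 CPM in KO and at 1.31, 0.0407, 0.247 and 0.370 CPM in KO+NM1, where piece 02 held a level below the 3-count floor. The log2 fold change was 5.33 (SE 0.81, adjusted p 0.0029). It shares 12.1% of its exon bases with Pmch, which had 0 to 6 counts per library. Rad54l, the motor protein that drives strand invasion, shares 15.4% of its exon bases with Lrrc41 (log2 fold change 0.31, adjusted p 0.156) and was at 38.4, 29.7 and 32.4 CPM against 3.39, 0.773, 1.04 and 1.36 CPM (log2 fold change 4.34, SE 0.50, adjusted p 0.00107). Its paralog Rad54b was at 18.9, 15.2 and 15.7 CPM against 1.28, 0.366, 0.247 and 0.452 CPM (log2 fold change 4.80, SE 0.53, adjusted p 0.000995), but 35.8% of its exon bases are shared with Fsbp on the same strand, which was also higher in KO (log2 fold change 3.20), so its counts are uncertain. The ratio of Rad54l to Rad54b was not distinguishable between the groups at this number of libraries (difference -0.48 on the log2 scale, exact permutation p 0.0857, adjusted 0.129). Rad51ap1, which promotes joint formation, differed from the others in one respect: KO+NM1 piece 01 was its lowest KO+NM1 library, at 2.77 CPM against 4.11 to 5.37 CPM, while KO pieces held 26.9, 24.6 and 25.4 CPM (log2 fold change 2.56, SE 0.26, adjusted p 0.000613).

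Of the 6 genes of end sensing and resection 5 were higher in KO. Exo1, the long-range resection nuclease, was at 29, 24.6 and 23.6 CPM in KO and at 1.64, 0.122, 0.395 and 0.452 CPM in KO+NM1 (log2 fold change 5.27, SE 0.70, adjusted p 0.00181), with KO+NM1 piece 02 at the floor of detection. Rbbp8, which encodes CtIP, the starter of resection, had 2.19, Mre11a and Rad50 had 1.91 and 1.65, and Trp53bp1, whose product 53BP1 opposes resection, had 1.44. The adjusted p of these 4 ran from 0.000364 to 0.00132. Factors for and against resection were thus higher together. Trp53bp1 shares 15.0% of its exon bases with Tubgcp4, itself higher in KO (2.22). Nbn, the third subunit of the MRN complex with Mre11a and Rad50, did not pass: it was at 33.8, 25.3 and 26.6 CPM in KO and at 23.4, 27.7, 30.5 and 28.2 CPM in KO+NM1, with overlapping groups (log2 fold change 0.06, SE 0.17, adjusted p 0.795). Per kilobase of merged exons of all annotated transcripts, the levels of the 3 subunits changed order, and the order within a group depends on that length. In KO pieces Rad50 led at 20.3, 16.02 and 17.8 CPM per kilobase, while Mre11a (13.1, 10.02 and 11.2) and Nbn (13.3, 10.00 and 10.5) overlapped. In KO+NM1 pieces Nbn led at 9.23, 10.9, 12.1 and 11.1 CPM per kilobase, Rad50 followed at 6.47, 5.71, 5.00 and 5.78, and Mre11a was lowest at 4.52, 2.74, 2.41 and 2.54, with no overlap between the 3. The ratio of Mre11a to Rad50 did not differ beyond its spread (0.29 on the log2 scale, exact permutation p 0.143, adjusted 0.19).

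Helicases and nucleases that resolve joint molecules held the largest difference of the set. Eme1, the partner subunit that MUS81 needs to cut branched DNA, was at 27.5, 21.97 and 20.97 CPM in KO and at 1.02, 0.122, 0.395 and 0.329 CPM in KO+NM1, a log2 fold change of 5.62 (SE 0.58, adjusted p 0.00086), or 50.3-fold between the means. All KO pieces were more than an order of magnitude above all KO+NM1 pieces. Mus81, the catalytic subunit, was at 24.3, 28.3 and 26.02 CPM in KO and at 36.6, 23.9, 22.8 and 23.9 CPM in KO+NM1. Its groups overlapped, KO+NM1 piece 01 was the highest of all 7 libraries, and the log2 fold change was -0.03 (SE 0.21, adjusted p 0.905). The log2 ratio of Eme1 to Mus81 within each library, which no scaling of libraries affects, was 0.18, -0.36 and -0.31 in KO and -5.14, -7.39, -5.76 and -6.10 in KO+NM1, a difference of 5.93 (exact permutation p 0.0286, adjusted 0.0571). That p is the smallest that 3 against 4 libraries allow. Eme1 shares 10.7% of its exon bases with neighbors, Lrrc59 mainly, which was higher in KO by 2.21 and highly expressed. Gen1, another resolvase, had a log2 fold change of 4.49 (SE 0.46, adjusted p 0.00075), Blm, the helicase that dissolves double junctions, had 3.16 (SE 0.38, adjusted p 0.00113), and Slx4, the scaffold that gathers nucleases at them, had 1.67 (SE 0.35, adjusted p 0.00689).

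Because the 2 subunits of this nuclease parted, their promoter windows are printed, with motif letters in capitals. The Eme1 window (chr11:94653694-94653993, minus strand) held a CHR on the minus strand at bases 22 to 27 after the start and no E2F-type element or CCAAT box, and the Mus81 window (chr19:5488330-5488629, minus strand) held none of the 3 motifs.
Eme1: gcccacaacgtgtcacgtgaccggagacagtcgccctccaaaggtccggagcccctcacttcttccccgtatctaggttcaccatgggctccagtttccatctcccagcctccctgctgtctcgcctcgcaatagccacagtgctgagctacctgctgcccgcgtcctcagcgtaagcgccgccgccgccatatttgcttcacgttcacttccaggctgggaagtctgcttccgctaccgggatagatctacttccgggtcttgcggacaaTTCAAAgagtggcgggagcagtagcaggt
Mus81: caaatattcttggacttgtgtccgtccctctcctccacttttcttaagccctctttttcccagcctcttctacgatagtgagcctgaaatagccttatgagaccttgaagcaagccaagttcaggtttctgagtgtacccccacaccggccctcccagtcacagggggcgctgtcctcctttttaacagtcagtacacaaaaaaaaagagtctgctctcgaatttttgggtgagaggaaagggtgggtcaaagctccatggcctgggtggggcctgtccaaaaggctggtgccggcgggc

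In the group of the Fanconi core complex, which assembles into the ubiquitin ligase, 4 of the 8 genes in the set were higher in KO and 4 did not pass. Fanca, a scaffold subunit, was at 71.4, 59.9 and 65.2 CPM in KO and at 4.74, 0.651, 1.09 and 1.32 CPM in KO+NM1 (log2 fold change 5.06, SE 0.63, adjusted p 0.00144). Ube2t, the conjugating enzyme that works with the complex, had 4.26 (SE 0.26, adjusted p 0.000225). Fancb and Fancm, a subunit of the catalytic module and the DNA-binding translocase, had 1.58 and 1.33 (adjusted p 0.0182 and 0.00794). The Fancb call was lost without KO piece 01 (1.21, adjusted p 0.0915) and without KO+NM1 piece 02 (1.48, adjusted p 0.0532). Without KO+NM1 piece 01 Fancb was at 1.90 (adjusted p 0.00049). The remaining 4 genes of the group lay close to 0 with overlapping libraries: Fancg 0.22, the ligase subunit Fancl 0.13, Fance -0.19 and Fancc -0.24. Among core subunits outside the set, Faap20 was lower in KO (-1.08, adjusted p 0.00158), and Fancf, Faap24 and Faap100 did not pass. Fancc was at 8.27, 7.02 and 7.26 CPM in KO and at 8.32, 9.76, 8.10 and 9.46 CPM in KO+NM1 (adjusted p 0.33). Fancl and Fance depended on KO+NM1 piece 01, without which they passed at 0.39 (adjusted p 0.0439) and -0.38 (adjusted p 0.0296). Fancl shares 13.7% of its exon bases with Vrk2, which was at 21.4, 18.1 and 18.5 CPM in KO and at 18.3, 6.06, 4.99 and 5.67 CPM in KO+NM1, likewise highest in piece 01 of that group, so its counts are uncertain, and the part of Vrk2 in them was not tested. With voom Fancl passed at 0.52 (adjusted p 0.00678), Fancg at 0.455 (adjusted p 0.0111) and Fancc at -0.36 (adjusted p 0.0309). Fancc shares 18.6% of its exon bases, mainly with an antisense gene that had 0 to 6 counts per library. Fancb and Fancl sit in the same catalytic module, and whether they differed from each other was not tested.

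Fanca and Fancg, whose products bind each other in the core complex, were the pair of this group compared within libraries. The log2 ratio of Fanca to Fancg was 2.15, 1.80 and 2.00 in KO and -2.24, -4.24, -3.09 and -3.21 in KO+NM1, with every KO piece above every KO+NM1 piece. The difference was 5.18 (exact permutation p 0.0286, adjusted 0.0571). Fanca shares 10.5% of its exon bases with Zfp276, which had a log2 fold change of 0.49 (adjusted p 0.0652). The promoter windows of the pair are shown for the same reason as before. The Fanca window (chr8:123318527-123318826, minus strand) held 2 CCAAT boxes, starting 50 and 23 bases before the start, and no E2F-type element, while the Fancg window (chr4:43010252-43010551, minus strand) held an E2F-type element starting 51 bases before the start.
Fanca: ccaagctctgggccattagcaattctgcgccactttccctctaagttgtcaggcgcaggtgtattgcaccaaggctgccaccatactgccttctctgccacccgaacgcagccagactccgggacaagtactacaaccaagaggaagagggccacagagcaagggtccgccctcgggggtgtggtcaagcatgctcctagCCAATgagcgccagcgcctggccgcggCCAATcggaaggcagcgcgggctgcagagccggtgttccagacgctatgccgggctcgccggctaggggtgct
Fancg: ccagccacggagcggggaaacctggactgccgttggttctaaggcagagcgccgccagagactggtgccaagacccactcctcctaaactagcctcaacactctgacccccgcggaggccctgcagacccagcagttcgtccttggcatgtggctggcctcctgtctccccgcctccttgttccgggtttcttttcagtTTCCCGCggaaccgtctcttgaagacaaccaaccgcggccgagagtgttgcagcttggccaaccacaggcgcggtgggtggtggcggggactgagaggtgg

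The substrates of the core complex, Fancd2 and Fanci, form a clamp on DNA once ubiquitin is attached, and both were higher in KO. Fanci was at 26.7, 21.3 and 22.8 CPM in KO and at 1.57, 0.326, 0.247 and 0.329 CPM in KO+NM1 (log2 fold change 5.22, SE 0.64, adjusted p 0.00139). Fancd2 was at 35.2, 27.4 and 30.4 CPM in KO and at 2.66, 0.976, 0.593 and 1.19 CPM in KO+NM1 (log2 fold change 4.50, SE 0.47, adjusted p 0.000829). In both genes KO+NM1 piece 01 was the highest KO+NM1 library and still below every KO piece. The ratio of Fancd2 to Fanci was lower in every KO piece (0.40, 0.36 and 0.41) than in every KO+NM1 piece (0.76, 1.53, 1.18 and 1.80), a difference of -0.92 on the log2 scale that did not pass (exact permutation p 0.0571, adjusted 0.098). Fanci shares 15.9% of its exon bases with Polg, which had a log2 fold change of 0.46 (adjusted p 0.0815).

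The DNA polymerases moved in opposite directions. Polq, which encodes polymerase theta, the enzyme of microhomology-mediated end joining, was at 31.2, 21.6 and 26.5 CPM in KO and at 3.10, 0.163, 0.148 and 1.11 CPM in KO+NM1 (log2 fold change 4.53, SE 0.94, adjusted p 0.00925). KO+NM1 pieces 01 and 04 were above pieces 02 and 03, and none reached a KO piece. Poln, which encodes polymerase nu, a translesion polymerase of the same family that is known mainly from testis, was counted with 4, 4 and 14 reads in KO and with 66, 246, 377 and 124 reads in KO+NM1. In CPM this was 0.133, 0.139 and 0.462 against 2.41, 10.01, 18.6 and 5.10, with all KO pieces below all KO+NM1 pieces and KO+NM1 piece 01 the lowest of its group. The log2 fold change was -5.17 (SE 0.81, adjusted p 0.00403). Haus3 lies within the span of Poln, and 1.99% of the Poln exon bases are shared with it and 2.08% with an antisense gene that had at most 1 count per library. Haus3 was higher in KO (1.21, adjusted p 0.0168), and the part of shared bases in the Poln counts was not tested. The log2 ratio of Polq to Poln was 7.70, 7.11 and 5.79 in KO and 0.36, -5.78, -6.75 and -2.18 in KO+NM1, the widest difference of the 12 pairs at 10.45 (exact permutation p 0.0286, adjusted 0.0571).

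Of the 6 checkpoint kinases and partners 3 were higher in KO at 2-fold, 1 was higher by less, and 2 did not pass. Chek1, the kinase that ATR activates at stalled forks, was at 31.5, 26.6 and 28.6 CPM in KO and at 2.08, 0.814, 1.09 and 0.493 CPM in KO+NM1 (log2 fold change 4.68, SE 0.45, adjusted p 0.000643). Chek2, the kinase that ATM activates at breaks, was at 15.2, 12.8 and 14.4 CPM in KO and at 11.1, 16.3, 17.1 and 12.9 CPM in KO+NM1, with overlapping groups (log2 fold change -0.02, SE 0.21, adjusted p 0.936). The log2 ratio of Chek1 to Chek2 counts was nearly the same in all KO pieces (1.05, 1.06 and 0.99) and lower in all KO+NM1 pieces (-2.40, -4.29, -3.94 and -4.65). The difference was 4.86 (exact permutation p 0.0286, adjusted 0.0571). Upstream of them the order was the reverse of this: Atm, upstream of Chek2, differed more than Atr, upstream of Chek1. Atm was at 52.3, 32.7 and 37.8 CPM in KO and at 8.86, 2.32, 3.80 and 3.82 CPM in KO+NM1 (log2 fold change 3.12, SE 0.45, adjusted p 0.00194). Atr was at 30.2, 18.3 and 24.1 CPM in KO and at 18.9, 10.98, 12.4 and 11.3 CPM in KO+NM1, where piece 01 exceeded KO piece 02. Its log2 fold change of 0.85 (SE 0.27, adjusted p 0.0349) was under 2-fold, and leaving out any 1 of 6 libraries, KO pieces 01 to 03 or KO+NM1 pieces 02 to 04, took the adjusted p to between 0.0527 and 0.196. It did not pass with upper-quartile scaling (0.70) or without a filter on low counts (0.76, adjusted p 0.0743) either. Without KO+NM1 piece 01 the log2 fold change of Atr was 0.94 (adjusted p 0.00434). The log2 ratio of Atr to Atm was -0.79, -0.83 and -0.65 in KO and 1.09, 2.23, 1.70 and 1.56 in KO+NM1 (difference -2.40, exact permutation p 0.0286, adjusted 0.0571). Atrip, the obligate partner of ATR, had 0.93 (SE 0.39, adjusted p 0.0856) at 13 to 63 counts per library, and the ratio of Atr to Atrip differed by -0.04 (exact permutation p 0.914). Atrip shares 16.0% of its exon bases with Trex1 on the same strand, and Trex1 had 0 counts in all 7 libraries. As reads of shared bases could not be assigned with certainty, this does not show that Trex1 was absent. The counts of Atrip are therefore uncertain. Topbp1, the scaffold that switches ATR on, was at 205 ± 29.5 CPM (SD, n = 3) in KO against 31.5 ± 16.98 CPM (SD, n = 4) in KO+NM1 (log2 fold change 2.70, SE 0.37, adjusted p 0.00155).

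The promoter windows of the checkpoint kinases are printed because they parted while an E2F-type element was found in both. In Chek1 (chr9:36726609-36726908, minus strand) it was on the minus strand at bases 44 to 50 after the start. In Chek2 (chr5:110839733-110840032, plus strand) it was on the minus strand, starting 152 bases before the start, together with 2 CCAAT boxes on the minus strand.
Chek1: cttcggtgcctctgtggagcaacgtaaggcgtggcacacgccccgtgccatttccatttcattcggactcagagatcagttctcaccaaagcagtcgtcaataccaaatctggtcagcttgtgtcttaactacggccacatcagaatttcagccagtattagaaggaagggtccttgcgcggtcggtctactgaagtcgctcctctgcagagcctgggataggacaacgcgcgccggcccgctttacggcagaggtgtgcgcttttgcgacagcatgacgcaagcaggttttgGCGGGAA
Chek2: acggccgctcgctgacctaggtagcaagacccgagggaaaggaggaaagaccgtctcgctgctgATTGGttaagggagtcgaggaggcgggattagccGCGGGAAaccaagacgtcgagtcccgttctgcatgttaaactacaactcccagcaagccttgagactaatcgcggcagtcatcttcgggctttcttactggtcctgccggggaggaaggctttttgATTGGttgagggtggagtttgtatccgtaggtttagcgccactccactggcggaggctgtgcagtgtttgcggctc

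**Figure D3:**
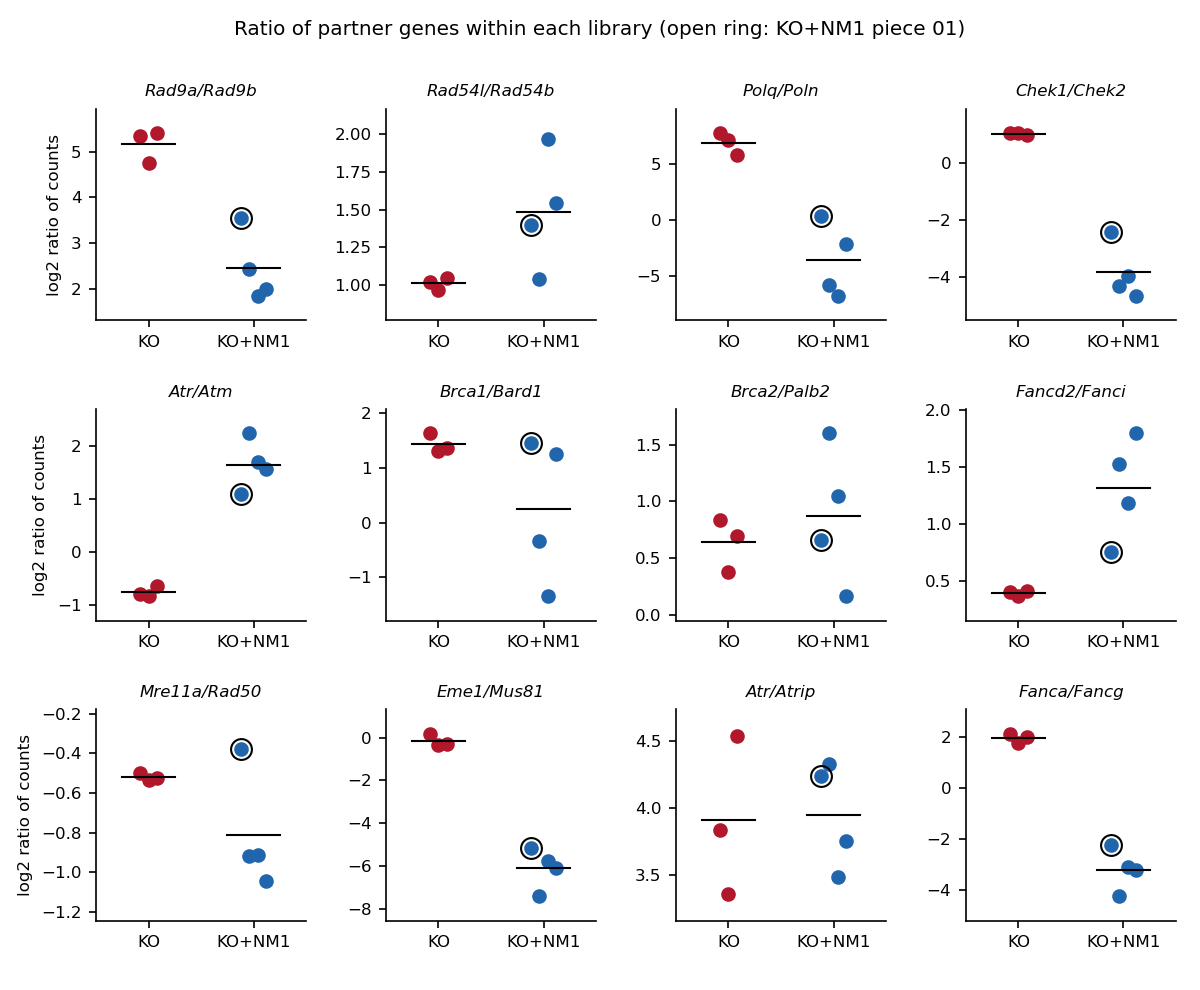
Log2 ratio of the counts of partner genes in each library for the 12 pairs, with dots for tumor pieces, lines for group means and an open ring around KO+NM1 piece 01. The groups are separate for 7 of the 12 pairs, 5 with KO above and 2 with KO below, and the gap is widest for Polq/Poln; the vertical axes differ between panels.

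The RAD9A-RAD1-HUS1 clamp, which is loaded at damaged sites and recruits TOPBP1, was mixed. Hus1 was at 30.4, 22.1 and 25.7 CPM in KO and at 19.2, 10.2, 9.98 and 8.92 CPM in KO+NM1 (log2 fold change 1.11, SE 0.31, adjusted p 0.0206). Its call was lost when any 1 of KO pieces 01 to 03 or KO+NM1 pieces 02 to 04 was left out (log2 fold change 0.88 to 1.10, adjusted p 0.0521 to 0.103). Over 16 settings, other tests among them, the adjusted p of Hus1 ran from 5.45e-05 to 0.103. Rad9a was at 38.6, 33.4 and 38.3 CPM in KO and at 44.6, 19.8, 16.8 and 15.5 CPM in KO+NM1, where piece 01 exceeded every other library. The log2 fold change of Rad9a was 0.60 (SE 0.39, adjusted p 0.229), and without KO+NM1 piece 01 it was 0.95 (adjusted p 0.000563). Rad9a shares 9.53% of its exon bases with Ppp1ca, which had 6013 to 15674 counts per library against 340 to 1223 for Rad9a. The part of these shared bases in the Rad9a counts was not tested. Rad1, the third subunit, had 0.15 (SE 0.27, adjusted p 0.669). With voom it passed at 0.34 (adjusted p 0.0321). Rad9b, a paralog of Rad9a known mainly from testis, was lower in KO: it was at 0.933, 1.22 and 0.892 CPM, or 27 to 35 counts, in KO and at 3.79, 3.62, 4.64 and 3.86 CPM, or 89 to 104 counts, in KO+NM1 (log2 fold change -1.97, SE 0.26, adjusted p 0.00161). KO+NM1 piece 01 did not stand apart for this gene. Rad9b shares 23.2% of its exon bases, Pptc7 being the neighbor, which had a log2 fold change of 0.62 (adjusted p 0.0713). The log2 ratio of Rad9a to Rad9b was 5.35, 4.76 and 5.40 in KO and 3.55, 2.45, 1.85 and 2.00 in KO+NM1 (difference 2.71, exact permutation p 0.0286, adjusted 0.0571).

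Eya2 encodes a phosphatase that acts on histone H2AX after damage and is also a transcriptional coactivator in development. It was at 0.800, 2.15 and 0.660 CPM in KO and at 14.3, 29.3, 22.7 and 36.6 CPM in KO+NM1, with all KO pieces below. The log2 fold change was -4.41 (SE 0.50, adjusted p 0.00133), and the mean in KO+NM1 was 21.4-fold that in KO.

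Of the 12 partner ratios, 6 reached the smallest p that 3 against 4 libraries allow, 0.0286, and none passed 0.05 after adjustment over the 12 pairs, where those 6 stood at 0.0571. In each of these 6 pairs, one gene had a log2 fold change under 1 in size or of opposite sign to its partner.

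Per kilobase of merged exons, the order of levels across the set differed between the tumors, and the order within a group depends on that length. In KO, Topbp1 (21.2, 16.1 and 17.5 CPM per kilobase), Rad50 (20.3, 16.02 and 17.8) and Rad9a (16.4, 14.1 and 16.2) were highest and overlapped, and Poln was lowest at 0.0246, 0.0256 and 0.0853. The rank of Rad9a holds with the limit that 9.53% of its exon bases are shared with Ppp1ca, a gene with far more counts. In KO+NM1, Nbn (9.23, 10.9, 12.1 and 11.1) had the highest mean and overlapped with Rad51d (6.66, 10.01, 9.99 and 8.18) and Eya2 (4.84, 9.89, 7.65 and 12.4). Rad9a (18.9, 8.39, 7.11 and 6.56) was above them in piece 01 alone, and in pieces 02 to 04 it lay below Rad51d, Eya2 and Fance (7.43, 8.69, 8.99 and 9.08). Rad51b and Exo1 were lowest at means of 0.0488 and 0.0775 CPM per kilobase. Poln had a mean of 0.0452 CPM per kilobase in KO and 1.67 in KO+NM1.

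The pieces were not alike within a group. KO+NM1 piece 01 was the highest of the 4 KO+NM1 libraries for 37 of the 48 genes and the lowest for 8, while over all genes tested it was highest in 43.0% and lowest in 41.4%. The median ratio of piece 01 to the mean of pieces 02 to 04 was 1.96 over the set and 0.993 over all genes. As a percent of the KO mean, the median gene stood at 40.7% in piece 01 and at 21.5% in pieces 02 to 04. The genes drawn by the study stood at medians of 10.8% and 3.60%, and the others at 78.2% and 47.8%. The size of the change on these libraries was part of the study's selection, so this contrast between drawn and other genes carries no independent evidence. The 3 genes lower in KO did not share this rise in piece 01: Poln and Eya2 had their lowest KO+NM1 level there, and Rad9b (3.79 CPM) lay within the range of the others (3.62 to 4.64 CPM). The median coefficient of variation of the 48 genes was 47.0% over the 4 KO+NM1 libraries and 14.1% over pieces 02 to 04, against 32.9% and 14.8% for all genes. In KO the spread was smaller, with a median coefficient of variation of 11.4% against 12.7% for all genes, yet KO piece 01 was the highest of its group for 38 of the 48 genes and for 42.4% of all genes. Summed skeletal muscle markers were 2452 CPM in KO piece 01 and 16430 to 20700 CPM in the others, and the part of this in the KO differences was not tested. Summed B and plasma cell markers were 5749 CPM in KO+NM1 piece 01, 9.99 to 26.9 CPM in pieces 02 to 04 and 44.96 to 90.99 CPM in KO. By these markers piece 01 was not near KO, and their part in the levels of piece 01 was not tested.

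**Figure D4:**
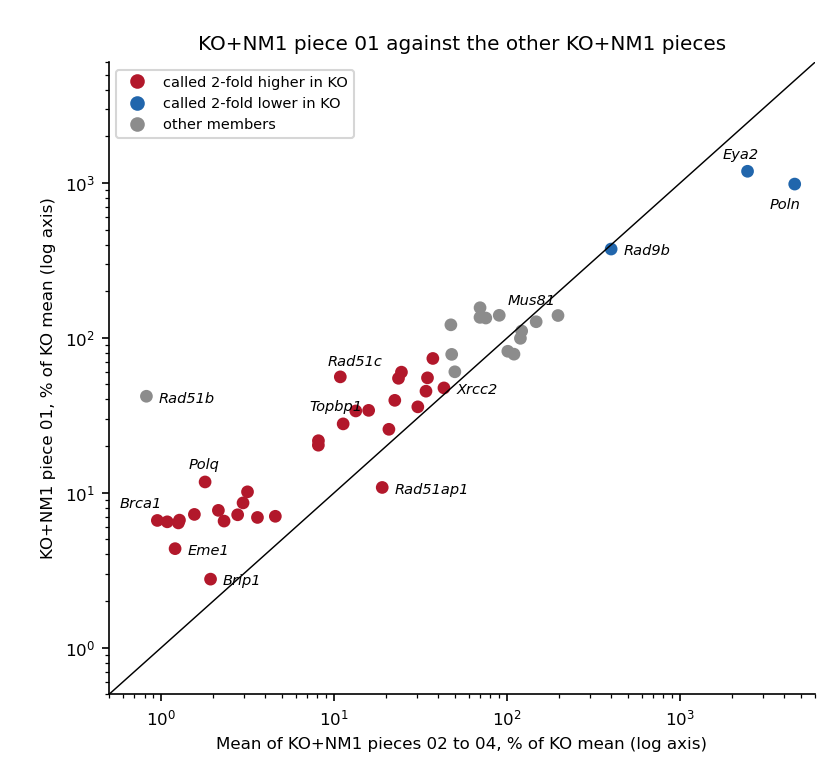
Level in KO+NM1 piece 01 against the mean level in KO+NM1 pieces 02 to 04, each as a percent of the KO mean of the same gene, both on log axes, with 1 dot per gene and the line of equal values. Most genes higher in KO lie above the line, so for these genes piece 01 stood nearer to KO than pieces 02 to 04 did. Rad51b, Rad51c and Polq lie far above the line and Rad51ap1 below it.

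Proliferation markers moved with the set. All 12 (among them Mki67 and Top2a) were higher in KO, and their summed level was 3213, 2560 and 2607 CPM in KO pieces 01 to 03 and 288, 109, 89.97 and 120 CPM in KO+NM1 pieces 01 to 04, an 18.4-fold difference between means. The summed level of the 48 genes was 1715, 1405 and 1480 CPM in KO and 613, 438, 444 and 442 CPM in KO+NM1, a 3.17-fold difference (1533 ± 162 CPM, SD, n = 3, against 484 ± 85.9 CPM, SD, n = 4). Both sums were highest in piece 01 within each group. Set against each other, the 48 genes amounted to 53.4 to 56.8 CPM per 100 CPM of proliferation markers in KO and to 213 to 494 in KO+NM1. When libraries were scaled to the summed counts of the proliferation markers, a choice made after the values were seen, 6 of the 48 genes were higher in KO at 2-fold and an adjusted p under 0.05, where 1.58% of all genes were, and 32 were lower, where 93.8% of all genes were. The 6 were Brca1, Eme1, Exo1, Fanci, Brip1 and Fanca. The median log2 fold change on this scale was -2.34 for the set and -4.41 for all genes. Pcna, with a log2 fold change of 1.85, held 254, 238 and 221 CPM of the marker sum in KO pieces 01 to 03. In KO+NM1 pieces 01 to 04 it held 93.96, 60.9, 48.7 and 59.6 CPM. The median log2 fold change over the 12 markers was 5.18, and scaling to the median marker was not tried. The 6 genes are therefore not shown to exceed the typical marker. What part the number of dividing cells had in the differences was not tested.

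**Figure D5:**
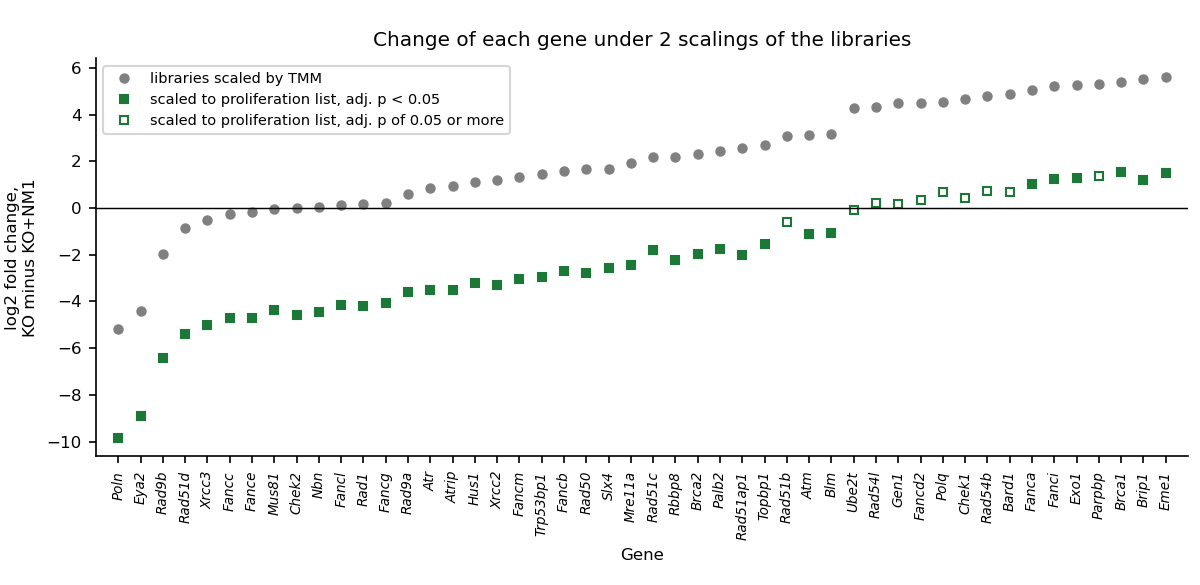
Log2 fold change (KO minus KO+NM1) of the 48 genes, sorted by the fit with TMM scaling (gray circles), and the same with libraries scaled to the proliferation markers (green squares, filled where the adjusted p was under 0.05). The median moves from 2.04 to -2.34, and 6 genes at the right stay above 0 with a passing test. Every gene moves down, so these 6 are among those with the largest change under TMM scaling and are not separate evidence.

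The rest of the pathway was counted from a list of 54 other genes, all of which were tested. At 2-fold 25 were higher in KO, where 17.1% of all genes tested were, and 3 were lower, where 20.3% of all genes were. By the adjusted p alone 30 were higher and 5 lower, against 25.7% and 24.5% of all genes. The median log2 fold change was 0.79, against -0.0017 over all genes tested. The 3 lower at 2-fold were Slx1b (-1.05), Faap20 (-1.08) and Shld1 (-1.41), a nuclease subunit, a small Fanconi core subunit and a shieldin subunit. Some were picked after their values were seen, to place the set. Clspn, the adaptor through which ATR reaches CHK1, had a log2 fold change of 6.14 (adjusted p 0.00114). Rpa1, Rpa2 and Rpa3, subunits of the single-strand binding protein, had 2.11, 1.52 and 0.74 (adjusted p 0.00133 to 0.00744). Rad52, an accessory mediator, had -0.32 and did not pass (adjusted p 0.269).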

How the data were processed

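RNA from 7 tumor pieces was sequenced on the NextSeq platform after library preparation with the NEBNext Ultra II kit. The deposited values are raw read counts per Ensembl gene, which the authors made by trimming with Trimmomatic 0.36, aligning to GRCm38 with HISAT2 2.0.4, sorting with SAMtools 0.1.19 and counting with HTSeq. The annotation release and the strand option of the counting are not given in the sources used here, so counts of genes that share over 10% of their exon bases are uncertain. Symbols came from GENCODE M21. Total counts per library set the precision (24088309 to 28326568).

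Counts were compared in R 4.3.3 by the quasi-likelihood test of edgeR 4.0.16, with filterByExpr (minimum count 10), TMM scaling, KO minus KO+NM1, and p-values adjusted by Benjamini-Hochberg across 16887 genes. A call needed an adjusted p under 0.05 and a 2-fold change. Standard errors were computed from the information matrix of each fit with edgeR's moderated dispersion. Partner ratios (0.5 added to each count) were compared by two-sided exact permutation tests of group labels (35 arrangements), adjusted over 12 pairs. Levels of different genes were compared per kilobase of merged exons. These join the exons of all annotated transcripts of a gene, and no other length was tried. Pairs of libraries of the same group differed by far more than sampling noise (chi-square per degree of freedom of at least 35.2), so none was a repeat. The steps were tested on simulated data. Every gene of the set was named. Values in every library were given for the largest and smallest change in each role, for genes called lower and for 5 partner pairs, and otherwise where a single library decided a value or a pair was shown. A gene of the list of other pathway genes is not reported here and was left out of its counts. The genes, lists and tests were chosen with earlier results of these data known. Alternatives were other scalings, filters, tests (DESeq2 1.42.0, limma 3.58.1 with voom, glmTreat), the adjusted p alone, the piece number as a block, another pseudocount and each library left out.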

Additional observations from a re-analysis of the deposited data

Results flagged for a closer look

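In 7 of the 60 values examined over the 4 KO+NM1 libraries, 1 library stood apart from the other 3 by Dixon's ratio of gap to range, taken at its critical value, where chance gives about 1 in 20, or 3. In 6 of them the library was KO+NM1 piece 01, which was above the rest in each: Mus81 (ratio 0.8961), Topbp1 (0.8919), Fancl (0.8579), Fanci (0.8564), Rad51c (0.846) and Hus1 (0.8291). The remaining one was Brip1 (0.8404), for which KO+NM1 piece 03 was below the rest, at 0.395 CPM against 0.987 to 1.17 CPM. Without KO+NM1 piece 01, Fancl passed the test (log2 fold change 0.39, adjusted p 0.0439), and Mus81 did not (0.03, adjusted p 0.836).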

How the results depend on the processing

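Over 16 settings per gene, 32 of the 48 genes kept their direction and their side of an adjusted p of 0.05, 6 lost a call, 7 gained one, and 6 changed sign (a gene can be in more than one count). Genes called higher at 2-fold numbered 22 to 32 and genes called lower 2 to 4, and 27 to 32 and 3 to 4 when each library was left out in turn. The 22 came from requiring at least 10 counts in every library, which left 37 genes of the set and gave a median log2 fold change of 1.396. With glmTreat 25 were higher, and by the adjusted p alone 5 were lower. Scaling to the proliferation markers gave 6 higher, 32 lower and a median of -2.341. The median over all genes shifted to -0.102 with DESeq2's size factors, to -0.159 with upper quartiles, to 0.166 with library size alone and to 0.117 with voom, and to -0.111 without a filter.

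6 genes changed sign, and the cause was not tested. Of these, Fancl passed with voom (0.5194, adjusted p 0.00678) and without KO+NM1 piece 01 (0.3942), Rad1 passed with voom (0.3378, adjusted p 0.0321), and Fance passed without KO+NM1 piece 01 (-0.3801). Nbn was at -0.0452 with DESeq2's size factors, -0.1048 with upper quartiles, -0.0417 without a filter, -0.0443 with DESeq2, -0.0728 with voom and -0.1939 to 0.0957 with libraries left out. Mus81 was at 0.1244 with library size alone, 0.1534 with voom and -0.2093 to 0.0269 with libraries left out. Fance was at 6e-04 and Chek2 at 0.1849 with library size alone, and Chek2 at -0.2575 to 0.0523 with libraries left out. With upper quartiles Fancl was at -0.0187 and Rad1 at -0.0013, and with libraries left out they ran from -0.0217 to 0.3942 and from -0.0521 to 0.2842.

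With 1 library left out the exact permutation p of a partner ratio cannot go below 0.0667 or 0.1, so no pair can pass. The differences then ran from 2.5036 to 3.0703 for Rad9a/Rad9b, 9.3984 to 11.7702 for Polq/Poln, 4.5779 to 5.3289 for Chek1/Chek2, -2.5882 to -2.2079 for Atr/Atm, 5.5012 to 6.2531 for Eme1/Mus81, 4.8283 to 5.4976 for Fanca/Fancg, -0.4636 to 0.0133 for Brca2/Palb2 and -0.352 to 0.2375 for Atr/Atrip, which was at 0.0154 with a pseudocount of 2.

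The piece numbers 01 to 03 did not pair the libraries: deviations of same-numbered pieces correlated at 0.0802, 0.102 and -0.0165, and 1 of 3 correlated best with its own number. With the replicate block 31 genes were higher and 3 lower, with a median of 2.045, and the differenced ratios were 2.5532 for Rad9a/Rad9b and 10.9232 for Polq/Poln, with no test. Under the block, Rad51d (adjusted p 0.0525), Xrcc3 (0.144) and Atr (0.0511) no longer passed.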
